A study of Trametes cinnabarina with 17 samples.

Results

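Of 9167 gene models with normalized counts in *Pycnoporus cinnabarinus* CIRM-BRFM 137, 870 had higher means on aspen and pine than on 4 other substrates. Of these, 14 met a set margin and further conditions on level and likeness. They were chosen by their measured values. On the log2(normalized count + 1) scale, the aspen mean and the pine mean both had to reach 6, to lie at least 1 above the highest of the wheat straw, xylan-galactomannan, Avicel and maltose means, and to differ from each other by less than 1. A difference of 1 on this scale is close to 1 doubling. Of 8140 genes that reached the level on both woods, 15 had the margin, and 1 of these was left out because its pine mean was 1.30 above its aspen mean. The rule also set aside 3 protein IDs beforehand, and 0 of these met its other conditions.

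The working name of the group, high on both woods and not on straw, holds only in part. Wheat straw gave the highest of the 4 other means for 11 of the 14 genes and Avicel for 3, and 9 of the 14 were higher on straw than on maltose by the test given below. The genes are therefore called wood-high genes here. Straw sat between wood and maltose for most of them.

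*P. cinnabarinus* is a white-rot fungus, a wood decayer that secretes enzymes to open lignin, cellulose and hemicellulose. Aspen is a hardwood and pine a softwood, and they differ in their hemicelluloses, in their lignin and in the lipids and resins they hold. Fungi growing on wood also build and remodel their own walls, in which chitin is a main fibre.

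RNA was sequenced from mycelium of this single strain after 3 days of liquid culture. The 17 libraries comprise 3 on aspen, 3 on pine, 3 on wheat straw, 3 on a mixture of xylans and galactomannans, 2 on Avicel, a purified cellulose, and 3 on maltose. The labels give 20 g/l maltose for the maltose cultures. Each of the 5 other groups received 15 g/l of its substrate plus 2.5 g/l maltose, so in a comparison against maltose the effects of the substrate and of less maltose cannot be told apart. The study describes independent triplicate cultures with each substrate as the only carbon source, which differs from the labels. Avicel has the replicates numbered 1 and 3 here.

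Library totals ran from 10668073 to 16176027 counts. Each wood-high gene had at least 21 counts in every library and at least 1176 over all libraries. All 14 passed the filter on low counts. Values below are the deposited normalized counts per library. They are not divided by gene length, so they compare libraries for 1 gene and not the levels of different genes. The libraries come from whole mycelium, in which more hyphae transcribing a gene and more transcript per hypha cannot be told apart.

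Genes carry only a protein ID in the files, and a search of the RefSeq table for the species found 0 of these IDs. The annotation sheets of the study, which cover 167 genes it had selected on libraries of this series, list 3 of the 14. These are 7817, a predicted chitinase of glycoside hydrolase family GH18 (EC 3.2.1.14), 3982, assigned to the predicted lipases, and 5263, which carries a conserved-family code, KOG1882, to which no role is given here. All 3 have a predicted signal peptide, the mark of a protein sent to the secretory pathway. The other 11 have no entry in those sheets and are known here by their IDs alone.

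**Figure D1:**
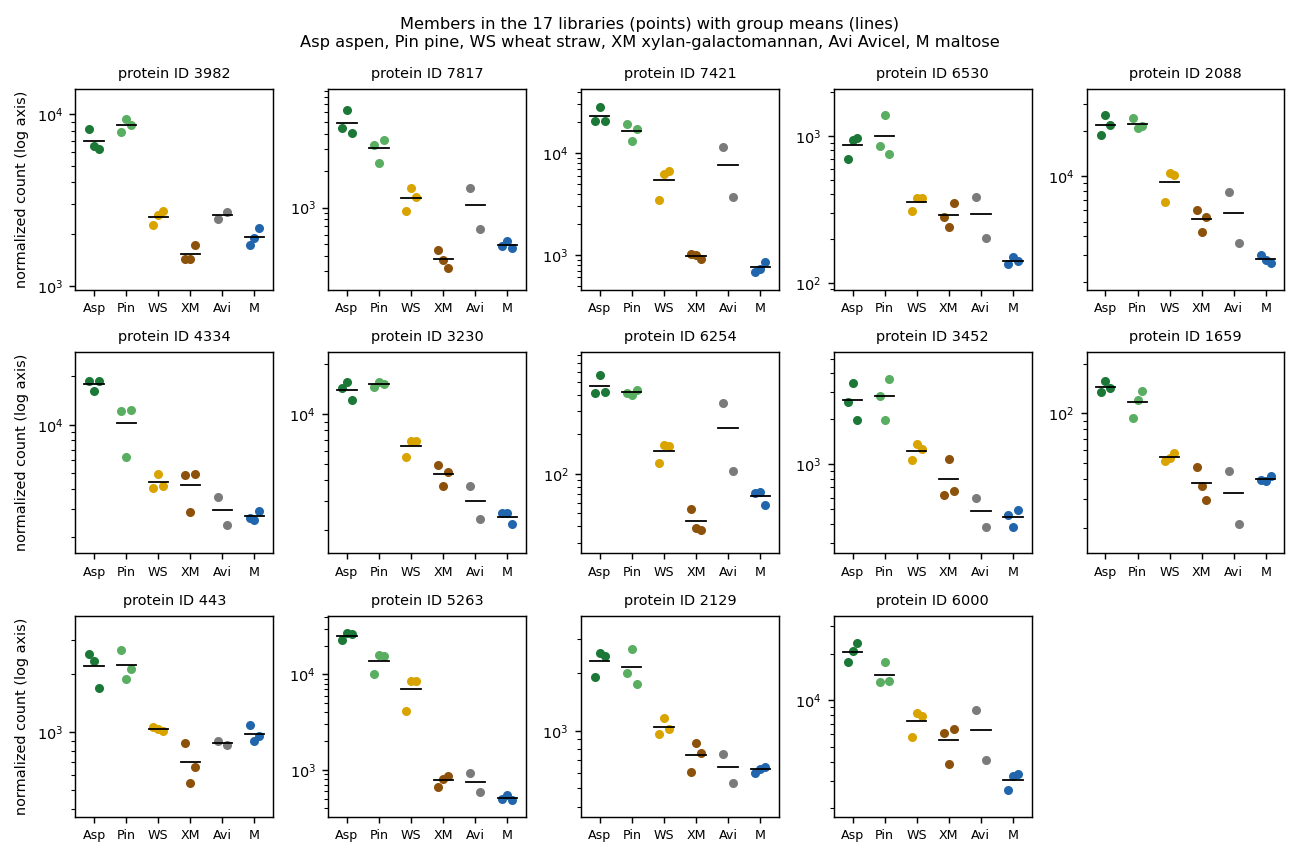
Normalized counts (log axis, with its own range in each panel) of the 14 wood-high genes in the 17 libraries; points are libraries and lines are group means, in the order of the margin. In every panel the 6 wood libraries lie above the 11 others, and the 2 Avicel points are often far apart.

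The lowest wood library exceeded the highest other library in all 14 genes. Over all genes this held for 239 of 9167, or 2.61%. The rule used these contrasts, so nothing is read from that count. The ratio of the lowest wood library to the highest other library ran from 1.15 for 7421 to 2.27 for 3982. The margin between the lower wood mean and the highest other mean ran from 1.01 to 1.42. The 3 members nearest the threshold all had margins of 1.01, and the 3 genes just outside it 0.989, 0.941 and 0.931. A further 72 genes met the other conditions with a margin between 0.5 and 1, so the group is the upper end of a continuous range.

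Chitinase 7817 cuts chitin, the polymer of N-acetylglucosamine in fungal walls and insect cuticle. It had 4440, 6231 and 4065 normalized counts on aspen, 3224, 2308 and 3599 on pine, and 937, 1444 and 1225 on wheat straw. The Avicel libraries held 1446 and 663, the maltose libraries 487, 534 and 465, and the xylan-galactomannan libraries 447, 370 and 318. All aspen libraries were above all pine libraries, and xylan-galactomannan lay below maltose without overlap. The aspen mean of 4912 ± 1157 (SD, n = 3) was 9.92 times the maltose mean of 495 ± 35.2 (SD, n = 3), and the pine mean of 3044 ± 664 (SD, n = 3) was 6.15 times it. Straw, at 1202 ± 254 (SD, n = 3), stood 2.38-fold above maltose in the fitted model, a log2 fold change of 1.25 ± 0.25 (SE; adjusted p = 0.000443, edgeR).

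Predicted lipase 3982 belongs to enzymes that split fatty acid esters. Its aspen libraries held 8189, 6472 and 6222 normalized counts and its pine libraries 7875, 9303 and 8666. On the other substrates it had 2277, 2601 and 2739 on straw, 1444, 1432 and 1740 on xylan-galactomannan, 2472 and 2683 on Avicel, and 1738, 1918 and 2165 on maltose. It had the largest margin of the 14, at 1.42. Aspen and pine overlapped, and so did straw and Avicel. The pine mean of 8615 ± 715 (SD, n = 3) was 4.44 times the maltose mean of 1940 ± 215 (SD, n = 3), and the aspen mean 3.59 times. Among the 4 other substrates its levels were close, with fitted log2 differences from maltose of 0.36 ± 0.14 on straw, 0.38 ± 0.15 on Avicel and -0.36 ± 0.14 on xylan-galactomannan (SE), none past the fold threshold.

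Gene 5263, with a predicted signal peptide, showed the widest span. It had 22870, 27365 and 26273 normalized counts on aspen, 10093, 15893 and 15460 on pine, and 4112, 8601 and 8504 on wheat straw. On xylan-galactomannan the values were 661, 804 and 866, on Avicel 920 and 592, and on maltose 502, 546 and 485. The 3 plant substrates formed 3 steps without overlap, aspen over pine over straw, and all 9 of their libraries lay above the 8 others. The aspen mean was 49.9 times and the pine mean 27.0 times the maltose mean. Straw was 13.6-fold above maltose (log2 fold change 3.76 ± 0.27, SE; adjusted p = 2.94e-09, edgeR) and 9.38-fold above Avicel (3.23 ± 0.32, SE; adjusted p = 2.74e-07). So 5263 was raised on all 3 plant substrates, and it met the rule because pine stood 1.01 above straw on the log2 scale.

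Among the 11 IDs without annotation, 7421 and 6530 had the largest margins, 1.33 and 1.29. Gene 7421 held 20439, 28449 and 20791 normalized counts on aspen and 19470, 13171 and 17100 on pine. Straw gave 3484, 6154 and 6731, and Avicel 11441 and 3705. Xylan-galactomannan gave 1015, 1007 and 919, and maltose 681, 730 and 854. Cellulose thus came closer to wood than straw did for this gene, through Avicel library 1, whose value was 3.09 times that of library 3. The aspen mean was 30.8 times and the pine mean 22.0 times the maltose mean.

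Gene 6530 had 702, 946 and 974 normalized counts on aspen and 850, 1398 and 756 on pine. Its straw libraries gave 307, 376 and 378, xylan-galactomannan 282, 241 and 348, Avicel 387 and 203, and maltose 134, 150 and 141. The 8 libraries on straw, xylan-galactomannan and Avicel overlapped, and all of them lay above maltose. The wood means were 6.16 (aspen) and 7.06 (pine) times the maltose mean.

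The remaining 9 IDs fall outside the rule for naming genes and are named so that every member is accounted for. Of these, 2088, 3230 and 3452 were closely alike on the 2 woods, with aspen means 0.992, 0.928 and 0.942 times the pine means. For 2088, aspen gave 18822, 25376 and 21922 normalized counts, pine 24395, 20816 and 21438, straw 6740, 10572 and 10137, and maltose 2992, 2806 and 2650. For 3230, the 6 wood libraries lay between 12230 and 15688, straw between 5501 and 6940, xylan-galactomannan between 3679 and 4919, and Avicel and maltose together between 2187 and 3684. In both genes straw was above xylan-galactomannan and xylan-galactomannan above maltose without overlap. The Avicel libraries of 2088, at 7814 and 3627, overlapped the ranges of straw and of xylan-galactomannan. For 3452, wood ranged from 1948 to 3681, straw from 1071 to 1359, and maltose from 384 to 499.

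Genes 4334 and 6000 were higher on aspen than on pine in every library. For 4334, aspen gave 18866, 16130 and 18615 normalized counts and pine 12213, 6291 and 12407, a ratio of means of 1.73. Its pine library 2 came near the highest straw value, 4955. For 6000, aspen ran from 17511 to 23397 and pine from 13139 to 17507, so the ranges almost touched. The ratio of its means was 1.41. Both genes had straw and xylan-galactomannan libraries that overlapped.

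Gene 6254 had 413, 560 and 422 normalized counts on aspen and 413, 399 and 436 on pine. Its Avicel libraries differed most of all, with 345 in library 1 and 105 in library 3. Straw gave 120, 165 and 163, maltose 71.1, 73.2 and 58.1, and xylan-galactomannan 54.1, 39.0 and 37.3. Xylan-galactomannan was thus the lowest substrate, below maltose without overlap, as for chitinase 7817 and for 443. The fitted difference had adjusted p of 0.123 for 6254, 0.194 for 7817 and 0.0199 for 443 (edgeR). None passed the fold threshold.

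The 3 genes left had, with lipase 3982, the 4 lowest ratios of the aspen mean to the maltose mean, from 2.23 for 443 to 3.68 for 2129. Gene 443 gave 1685 to 2654 normalized counts on wood and 548 to 1091 on all other substrates. Gene 2129 gave 1762 to 2660 on wood, 957 to 1168 on straw, and 532 to 859 elsewhere. Gene 1659 was the only one with a wood mean under 8 on the log2 scale, with 93.6 to 157 normalized counts on wood, 51.2 to 57.6 on straw and 21.1 to 46.8 elsewhere. For 443 straw and maltose overlapped, while for 2129 and 1659 every straw library was above every maltose library.

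Summed, the 14 genes took 0.994% ± 0.114 (SD, n = 3) of the counts on aspen and 0.733% ± 0.035 (SD, n = 3) on pine. The share was 0.357% ± 0.074 on wheat straw (SD, n = 3), 0.193% ± 0.029 on xylan-galactomannan (SD, n = 3) and 0.145% ± 0.006 on maltose (SD, n = 3). The 2 Avicel libraries held 0.266% and 0.146%, so library 3 was at the maltose level and library 1 close to the lowest straw library, 0.271%. The 3 aspen libraries, from 0.874% to 1.10%, were above the 3 pine libraries, from 0.700% to 0.770%. This order was set by some of the genes, since the aspen mean was above the pine mean in 8 and below it in 6. All aspen libraries exceeded all pine libraries in 5 genes, 7817, 7421, 4334, 5263 and 6000, and the reverse held in 0. Over all 9167 genes these shares were 29.3% and 27.0%. The rule limited the difference between aspen and pine, so nothing is read from the counts.

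**Figure D2:**
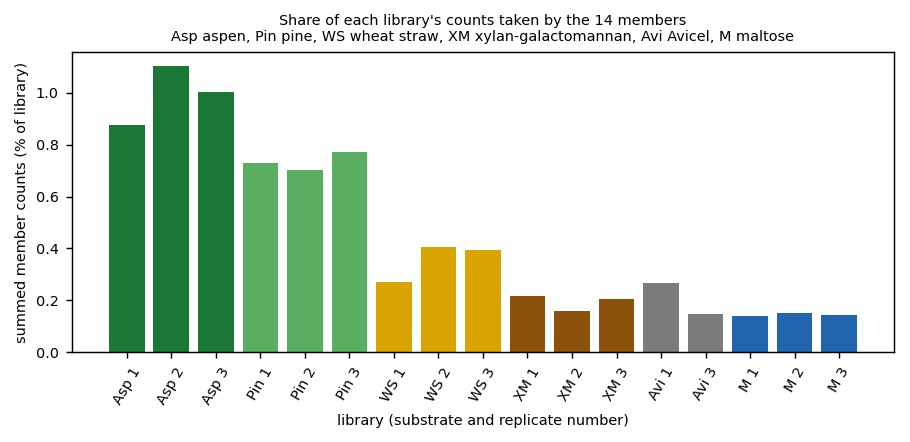
Summed counts of the 14 wood-high genes as a percentage of all counts in each of the 17 libraries; bars are single libraries, coloured by substrate. Aspen libraries reach 0.874% to 1.10%, pine 0.700% to 0.770% and straw 0.271% to 0.406%, while maltose stays between 0.140% and 0.151%.

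Whether these genes also varied among the substrates other than wood was tested next. The rule capped the 4 other means without ordering them, so it did not set which was higher. The tests use the same libraries and the means it capped, so they are not independent of the choice of genes. On wheat straw 9 of the 14 were higher than on maltose and 0 were lower, in edgeR's quasi-likelihood test over all genes. A gene was called where its Benjamini-Hochberg adjusted p was below 0.05 and its log2 fold change exceeded 1 in size. The background was 9.53% of 9162 genes tested called higher and 6.13% called lower. The 9 were 5263, 7421, 2088, 3452, 3230, 6530, 7817, 6000 and 6254, with log2 fold changes from 3.76 down to 1.11. The median over the 14 was 1.24, against -0.05 over all genes tested. All 14 fitted values were above 0, against 4229 of 9162 over all genes tested. Of the 14, 12 had an unadjusted p under 0.05 and a positive sign, and 0 had one with a negative sign. DESeq2 also called 9 of the 14 higher and 0 lower. Counts by unadjusted p, here and below, were not taken over all genes, so nothing is read from them. The DESeq2 counts were not taken over all genes either and only set both methods side by side.

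The 5 genes not called on straw had log2 fold changes of 0.05 ± 0.17 for 443, 0.36 ± 0.14 for 3982, 0.41 ± 0.23 for 1659, 0.68 ± 0.24 for 4334 and 0.71 ± 0.17 for 2129 (SE). For 443, the value on straw differed from that on maltose by less than the standard error, while its aspen and pine means were 2.23 and 2.27 times the maltose mean.

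On Avicel 5 of the 14 were higher than on maltose and 0 lower, with 6.01% of all genes called higher and 5.83% lower. These were 7421 (log2 fold change 3.30 ± 0.35, SE; adjusted p = 8.07e-07, edgeR), 6254 (1.69 ± 0.32; adjusted p = 0.000541), 7817 (1.06 ± 0.27), 6000 (1.03 ± 0.27) and 6530 (1.02 ± 0.27). All 5 were also among the 9 called on straw. Unadjusted p was under 0.05 for 7 genes with a positive and 0 with a negative sign, and DESeq2 called 6 higher and 0 lower. The median of the 14 was 0.46, against -0.01 over all genes tested, and it was 0.29 without Avicel library 1 and 0.73 without Avicel library 3. The count of calls rests on Avicel library 1. Without it 1 gene, 7421, was called, with the lone Avicel library assumed to vary like the other groups, and without library 3 the count was 6. With upper-quartile factors 2 genes were called.

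Avicel library 1 was above library 3 in 13 of the 14 genes, the exception being 3982, and more than 1.5 times above it in 10. Over all genes library 1 was above in 51.0% and more than 1.5 times above in 7.99%. These comparisons were chosen after the values had been seen and are given as a description. The ratio reached 3.27 for 6254 and 3.09 for 7421. Wheat straw library 1 was likewise the lowest straw library in 13 of the 14 genes, against 39.1% of all genes, and without it 10 of the 14 still met the rule. The median SD between replicates over the 14 genes, on the log2 scale, was 0.56 on Avicel, 0.28 on pine, 0.26 on xylan-galactomannan, 0.22 on aspen, 0.18 on straw and 0.11 on maltose. Over all genes these medians were 0.14, 0.17, 0.22, 0.17, 0.09 and 0.12. What sets these libraries apart was not tested.

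On xylan-galactomannan 1 gene, 6530, was higher than on maltose, at a log2 fold change of 1.01 ± 0.24 (SE; adjusted p = 0.00306, edgeR), and 0 were lower. Over all genes 6.97% were called higher and 3.20% lower. The value of 6530 sits on the fold threshold, and the call was lost with upper-quartile factors and without maltose library 1 or xylan-galactomannan library 3. Without library 2 of xylan-galactomannan, 6000 was called as well. The 14 genes split on this substrate, with 9 fitted values above 0 and 5 below. Over all genes tested, 4543 of 9162 were above 0. Unadjusted p was under 0.05 for 7 of the 14 with a positive sign and for 2 with a negative sign, 3982 and 443. DESeq2 called 1 of the 14 higher and 0 lower. The median was 0.47, against 0.00 over all genes tested.

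Straw and cellulose were compared directly, because both are solid substrates with the same maltose supplement by the labels. Here 3 of the 14 were higher on straw and 0 lower, with 8.18% of all genes called higher and 7.15% lower. They were 5263, 3452 (log2 fold change 1.33 ± 0.30, SE; adjusted p = 0.00148, edgeR) and 3230 (1.10 ± 0.20; adjusted p = 0.000201). Unadjusted p was under 0.05 for 7 genes with a positive and 0 with a negative sign, and DESeq2 called 3 higher and 0 lower. The median over the 14 was 0.42, against 0.00 over all genes tested, and it was 0.88 without Avicel library 1 and 0.22 without Avicel library 3. For 7421 and 6254 the fitted difference leaned to Avicel, at -0.47 ± 0.34 and -0.58 ± 0.31, with adjusted p of 0.28 and 0.148. Without Avicel library 1, 2088 and 1659 were called too, for 5 in all. Without library 3 the calls were 5263, 3452, 7421 and 6254, the last 2 being lower on straw. The difference between straw and Avicel of 7421 and 6254 therefore depends on which Avicel library is kept.

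**Figure D3:**
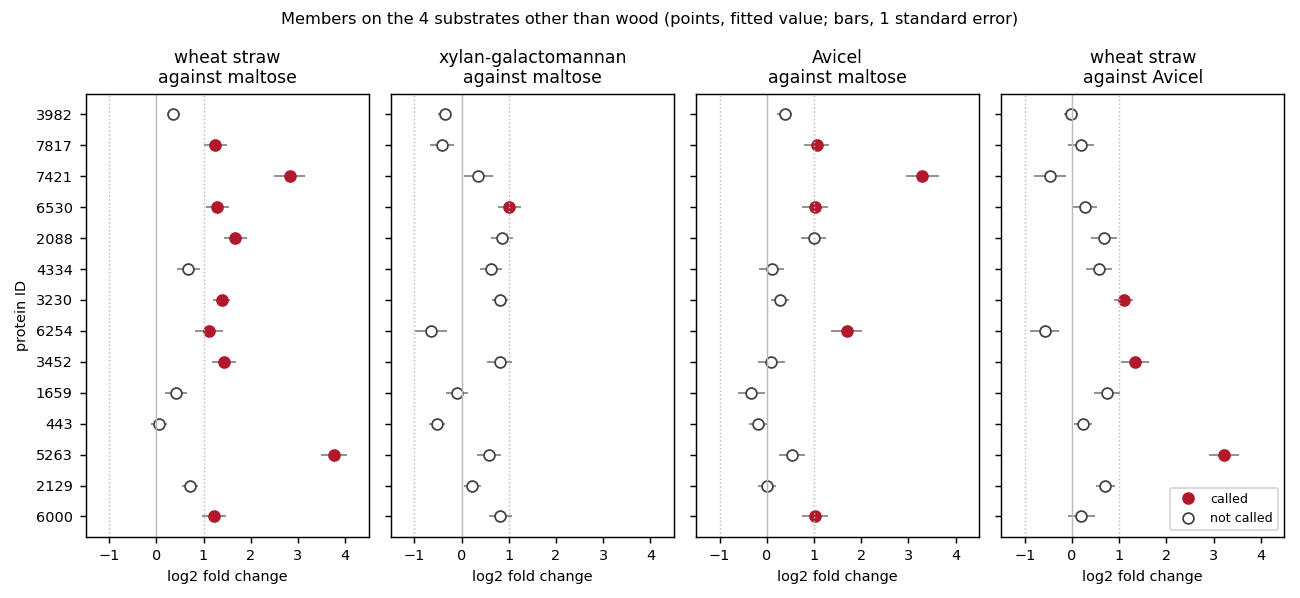
Fitted log2 fold changes of the 14 wood-high genes in 4 comparisons among substrates other than wood; points are fitted values, bars 1 standard error, filled points are called (adjusted p under 0.05 and log2 fold change beyond 1) and dotted lines mark the fold threshold. The straw panel holds 9 filled points, the Avicel panel 5 and the xylan-galactomannan panel 1, all to the right of 0.

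Sorted by these calls, 5 genes, 7421, 6254, 7817, 6000 and 6530, were called on both straw and Avicel against maltose, and 6530 on xylan-galactomannan too. Of these 5 only 7421 was called on Avicel without Avicel library 1, and only 7421 and 6254 with upper-quartile factors. Another 4, 5263, 3452, 3230 and 2088, were called on straw but not on Avicel, and for the first 3 the difference between straw and Avicel was itself called. For 3230 that call was lost without Avicel library 3. For 2088 that difference was 0.68 ± 0.27 (SE; adjusted p = 0.0483, edgeR), under the fold threshold, and its Avicel value against maltose was 0.99 ± 0.26, just short of it. With RLE factors, with no filter and in DESeq2, 2088 was called on Avicel as well, so the line between these 2 sets of genes is not sharp. The last 5, 3982, 4334, 2129, 1659 and 443, were called against maltose on none of the 3 substrates straw, Avicel and xylan-galactomannan. On straw 3982, 4334 and 2129 had adjusted p of 0.0379, 0.0263 and 0.00234 (edgeR) and missed only the fold threshold. On xylan-galactomannan the same held for 3982 and 443, which were lower, and for 4334, which was higher. Lipase 3982 is the only one of these 5 with a predicted function.

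A set of 103 genes raised evenly on aspen, pine and straw, chosen by the same level and margin, was set beside the wood-high genes. Relative to each gene's mean over the 2 woods, the median straw level was -1.33 for the 14 genes and -0.11 for the 103, on the log2 scale, and 0.00 over all genes. Both rules fix this difference. On xylan-galactomannan the medians were -1.79 and -1.77, on Avicel -1.87 and -1.97, and on maltose -2.58 and -2.41. Both rules put these substrates at least 1 below each wood mean, so these medians are given as values only.

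Genes with related predicted functions were taken from the annotation sheets of the study. The sheets hold genes it chose as raised on aspen, pine or straw, on libraries of this series, so their directions are no independent evidence. Of 7 genes annotated as chitin-active, by GH18 or chitinase family codes, 1 is a wood-high gene, 7817. The straw mean was below both wood means in 6 of the 7, and the median margin was 0.57. Over all 9167 genes the median margin was -0.60, and the straw mean was below both wood means in 2558. The 2 next to 7817 were 2012, another GH18 gene, with a margin of 0.84, and 8195, with 0.82. For 2012 the mean was 10613 ± 1603 on aspen, 9352 ± 1576 on pine and 5216 ± 901 on straw (SD, n = 3 each). The GH18 gene 1643 stood 0.57 above its highest other substrate, which was Avicel, at 2231 ± 1214 (SD, n = 2), while its straw mean was 790 ± 205 (SD, n = 3). The exception was 9620, which was highest on straw with a margin of -1.55. Against maltose, 5 of the 7 were called higher on straw, 2 on Avicel and 0 on xylan-galactomannan, and 0 were called lower on any of the 3. The shares over all genes stand above, with 9.53% called higher on straw. By the same call, 11 of 12 genes listed as plant polysaccharide hydrolases were higher on straw than on maltose. So were 16 of 18 membrane transport genes and 5 of 5 cytochrome P450 genes. On Avicel these counts were 2, 3 and 1, and on xylan-galactomannan 5, 5 and 3, with 0 called lower.

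**Figure D4:**
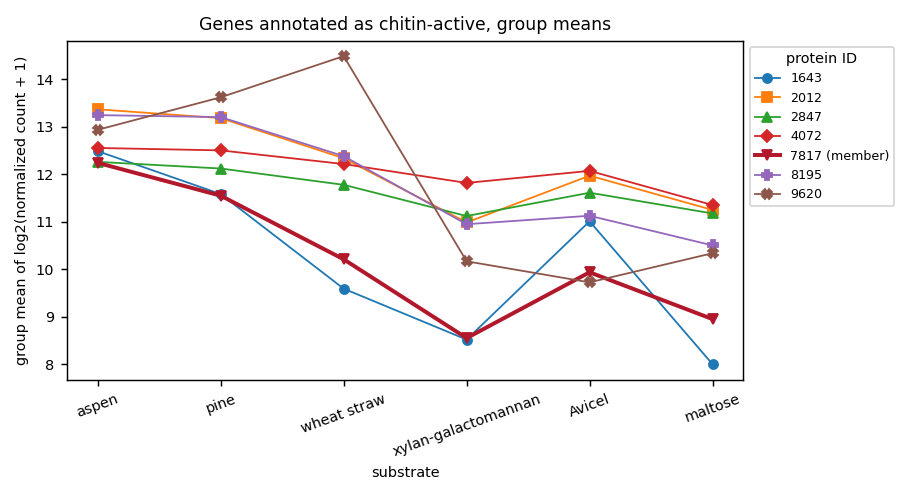
Group means of log2(normalized count + 1) for the 7 genes annotated as chitin-active, by substrate; each line joins the 6 group means of 1 gene and the thick line is the wood-high gene 7817. In 6 of the 7 genes straw lies below both woods, and 9620 peaks on straw.

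The 12 genes listed as plant polysaccharide hydrolases were taken from the sheets by glycoside hydrolase family alone. Their substrates were not checked, so the list may hold genes that act on other polymers, fungal ones included. Of the 12, 0 met the rule, the straw mean was below both wood means in 2, and the median margin was -0.31. The difference between the lists was not tested. Of 18 membrane transport genes 0 met the rule, 10 had straw below both woods, and the median margin was -0.01, with the aquaporin-family gene 7930 highest at 0.70. Of 5 cytochrome P450 genes 0 met the rule and 2 had straw below both woods. One of these, 5611, is the gene with a pine mean 1.30 above its aspen mean named at the start and is also among the 3 IDs set aside.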

How the data were processed

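The count table holds raw counts per gene model that the authors made from poly-A RNA reads by quality filtering, alignment with TopHat 2 and counting with HTSeq. How reads mapping to several genes were treated, the genome build and the use of strand were not given in the sources used here. Near-identical gene copies may therefore share counts. The second deposited table is a normalized signal. In it the authors scaled each library's counts by its DESeq2 size factor. It covers the 9167 of 10442 gene models with at least 85 counts in total. The rule for the 14 genes was applied to this table.

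Tests used the raw counts in edgeR 4.0.16 (R 4.3.3). A single quasi-likelihood fit, with substrate as its only factor and TMM normalization, covered the 9162 genes kept by filterByExpr and all 17 libraries. Standard errors are the log2 fold change over the square root of F. DESeq2 1.42.0, other factors, filters, thresholds and samples were alternatives. Genes were named if the annotation sheets of the study gave a predicted function or, without one, if they had the 2 largest margins or the 2 lowest values on straw against maltose among genes called lower (0 were called). All other members were named after their values were seen. The members and lists were chosen with earlier results of these data known. Replicate pairs differed by more than counting noise (lowest chi-square per degree of freedom 8.51). The labels number replicates without tying them to a batch or date.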

Additional observations from a re-analysis of the deposited data

How the results depend on the processing

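The number of genes meeting the rule was 0 with a margin of 1.5, and 10 to 16 when each library was left out in turn. It stayed between 11 and 14 under the other settings of pseudocount, scaling, averaging, level and likeness. For the counts of calls below, shares over all genes were not taken with Bonferroni adjustment, with no fold threshold or without 1 library. Those counts show only how far the calls depend on the setting. The 9 calls on straw against maltose fell to 4 with Bonferroni adjustment and rose to 12 with no fold threshold. They were the same 9 genes in each of the 17 fits without 1 library. On Avicel against maltose, 2 genes were called with upper-quartile factors, 1 with Bonferroni adjustment, and 1 to 6 without 1 library (1 without Avicel library 1). On xylan-galactomannan against maltose, 0 were called with upper-quartile factors or Bonferroni adjustment, 8 with no fold threshold (6 higher, 2 lower), and 0 to 2 without 1 library. On straw against Avicel, 6 were called with no fold threshold, 1 with Bonferroni adjustment, and 3 to 5 without 1 library. Leaving out 1 library, the median log2 fold change of the 14 genes ran from 1.11 to 1.38 on straw against maltose, 0.41 to 0.50 on xylan-galactomannan, 0.29 to 0.73 on Avicel, and 0.22 to 0.88 on straw against Avicel. The last 2 ranges end at the fits without Avicel library 1 or 3. With the number as a replicate block the 4 counts were 9, 5, 1 and 3, as without it. Same-numbered libraries on straw and maltose had deviations that correlated at only 0.12, 0.02 and 0.05, so the numbers were not taken to pair them. The correlations were 0.07 and 0.04 for Avicel and maltose, and 0.002, 0.08 and 0.02 for xylan-galactomannan and maltose. For straw and Avicel they were -0.24 and -0.19. With 2 Avicel libraries, comparisons with Avicel are the least certain.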
